A study of Mus musculus with 5 samples.

Results

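Nrl, Crx, Esrrb and Samd11 encode regulators of rod photoreceptor fate. Their RNA was compared here between the retina of mutant mice, labelled Rb-, and that of wild-type mice. Every spot whose single gene symbol in the array annotation was one of these 4 genes was taken, which gave 7 of 17328 spots: 2 for Nrl, 2 for Crx, 2 for Esrrb and 1 for Samd11. Spots are called by their number on the array, and no spot was chosen by its value. The series consisted of 5 dual-colour arrays, each with total RNA of wild-type mice in channel 1 and of mutant mice, labelled Rb-, in channel 2. The title of the series calls the tissue retinal explants, which are retinas grown in a dish. The 5 arrays carry the same labels and form a single group, numbered 1 to 5 in order of deposition. The Rb allele, how the mutation was made, the age of the tissue and the days in culture could not be read from the labels. Neither could any pooling of animals or whether arrays came from separate animals. The p-values below thus reflect array-to-array spread alone, and part of it may be technical.

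Rods and cones arise from a shared precursor that expresses Crx, a homeodomain protein of the Otx family that switches on photoreceptor genes of both types. Nrl, a leucine zipper protein of the Maf family, directs that precursor to the rod fate, and without it rods are replaced by cells that resemble short-wavelength cones. Esrrb, an orphan nuclear receptor, acts downstream of Nrl and supports rod gene expression and survival. Samd11 carries a sterile alpha motif domain and, with its relative Samd7, works in a Polycomb repressive complex that keeps non-rod genes silent in rods. The Rb protein restrains E2F factors and entry into S phase, and known work on the Rb-deficient retina concerns progenitor proliferation and rod development, which is the question these arrays address.

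The sequences just upstream of these genes are shown because Nrl and Samd11 had low ratios on the same arrays and because Crx binds a short site that can be searched for. Samd7 is added as the partner of Samd11, and Aipl1 and Rom1 as the genes whose ratios lay closest to those of Nrl and of Samd11. Each line holds the 250 bases upstream of a RefSeq start site in assembly GRCm38.p6, and the 4 genes all had an entry. Capitals mark matches on either strand to TAATCC, a core site of Crx and other Otx proteins, which reads GGATTA on the minus strand, and to TGCTGA, a half-site of Maf proteins such as Nrl. The windows are chr14:55524253-55524502 on the minus strand for Nrl, chr7:15879956-15880205 on the minus strand for Crx, chr4:156255343-156255592 on the minus strand for Samd11, chr3:30746043-30746292 on the plus strand for Samd7, chr11:72037510-72037759 on the minus strand for Aipl1 and chr19:8929357-8929606 on the minus strand for Rom1.
Nrl: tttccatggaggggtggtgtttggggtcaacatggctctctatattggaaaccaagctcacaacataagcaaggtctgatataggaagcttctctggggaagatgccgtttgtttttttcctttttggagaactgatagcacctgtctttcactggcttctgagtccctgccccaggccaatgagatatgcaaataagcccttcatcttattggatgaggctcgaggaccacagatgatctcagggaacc
Crx: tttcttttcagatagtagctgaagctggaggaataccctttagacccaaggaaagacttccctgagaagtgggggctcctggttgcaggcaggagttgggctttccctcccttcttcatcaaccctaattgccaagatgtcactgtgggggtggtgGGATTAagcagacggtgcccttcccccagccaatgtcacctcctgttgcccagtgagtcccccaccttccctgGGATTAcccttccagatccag
Samd11: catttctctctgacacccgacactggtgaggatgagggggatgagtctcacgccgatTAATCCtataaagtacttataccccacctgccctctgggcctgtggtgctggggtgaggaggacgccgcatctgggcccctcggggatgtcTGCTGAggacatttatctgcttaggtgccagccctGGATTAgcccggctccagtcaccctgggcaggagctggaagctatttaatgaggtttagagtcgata
Samd7: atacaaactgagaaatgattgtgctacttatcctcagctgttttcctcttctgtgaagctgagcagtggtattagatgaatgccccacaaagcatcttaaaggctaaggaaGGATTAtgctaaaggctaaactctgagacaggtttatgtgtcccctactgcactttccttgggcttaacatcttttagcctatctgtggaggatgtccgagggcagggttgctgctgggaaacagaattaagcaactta
Aipl1: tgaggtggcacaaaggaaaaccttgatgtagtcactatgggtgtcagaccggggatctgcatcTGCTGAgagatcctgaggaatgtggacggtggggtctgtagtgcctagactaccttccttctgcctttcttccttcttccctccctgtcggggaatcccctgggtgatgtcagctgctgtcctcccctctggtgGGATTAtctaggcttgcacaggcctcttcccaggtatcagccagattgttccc
Rom1: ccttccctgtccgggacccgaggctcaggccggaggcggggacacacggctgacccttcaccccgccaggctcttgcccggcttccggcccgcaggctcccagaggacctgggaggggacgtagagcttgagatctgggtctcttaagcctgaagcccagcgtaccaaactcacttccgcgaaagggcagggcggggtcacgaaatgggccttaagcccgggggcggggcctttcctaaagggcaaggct

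The Samd11 window held 2 TAATCC matches, starting 193 and 67 bases upstream of the start site, and 1 TGCTGA match at 102 bases. The Crx window held 2 TAATCC matches, at 94 and 21 bases, and no TGCTGA. Samd7 had 1 TAATCC match at 139 bases, and Aipl1 had 1 TAATCC match at 53 bases and 1 TGCTGA match at 187 bases, whereas Rom1 had neither. Of the 10 genes nearest to Nrl and Samd11 in their ratios, 9 had an entry, and TAATCC was present in a window of 3 (Aipl1, Rtbdn and Sv2b), TGCTGA in 2 and neither in 6 (Atp2b1, Dact2, Htra1, Pdc, Rom1 and Scamp5). These counts are per gene, over any of its windows, of which Sv2b had 4 and Atp2b1 had 2. They are thus not on the scale of the per-window shares below. None of the matches in the printed windows overlapped another. Of 32851 upstream windows of the same length, 6.25% held TAATCC and 16.1% held TGCTGA on either strand. The windows of Nrl and of both Esrrb start sites held neither. No window of the 4 genes held AGGTCA, the half-site of many nuclear receptors (14.0% of windows), or the E2F words TTTGGCGC, TTTCCCGC, TTTCGCGC and TTTGCCGC (1.86%). A match is a run of letters and was not tested as a binding site, and a window without one says nothing about more distant sequence.

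Each value is the deposited log2 ratio of the array's colour channels, less the median of that array, so that 0 is the middle of all spots. A value of -1 or 1 is a difference of 2-fold. The labels give the scanner's ratio as 635 over 532 nm without saying which dye marked which RNA. Signs are those of the deposited values, and no sign is tied to either genotype. From 71.8% to 75.9% of spots gave a usable ratio per array, and intensities were not analysed here, so no expression level is known and the tissue cannot be checked by the presence of its markers. The spread of the arrays differed, with a median absolute deviation of 0.926, 0.559, 0.885, 0.608 and 0.655 log2 on arrays 1 to 5. The middle of the 3739 genes measured on all 5 arrays lay at -0.39, 0.01, -0.43, 0.13 and -0.27, and lists of genes are given relative to it. Control spots for ACTB had medians of 1.09, -2.10, 0.72, -0.30 and 0.05 on arrays 1 to 5, highest on arrays 1 and 3.

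Samd11 was the only one of the 4 genes whose ratio was negative on every array, and by far the lowest on arrays 1 and 3. Its spot 15616 read -5.23, -1.18, -5.09, -0.65 and -0.42 log2 across arrays 1 to 5. On arrays 1 and 3 the channels thus differed by 37.5-fold and 34.0-fold relative to the array median. On the other arrays they differed by 1.34-fold to 2.26-fold. Arrays 1 and 3 were set apart after these values were seen, so the lack of overlap follows from that choice. Among all measured spots, spot 15616 stood at percentiles 0.296 and 0.332 on arrays 1 and 3, and at 15.8, 26.1 and 31.2 on arrays 2, 4 and 5. It was also below the middle of all genes on each array, by 0.15 at the least on array 5. The 5 negative signs held under every other centring and scaling tried. Of 6753 spots measured on all 5 arrays, 11.2% were negative on each and 4.01% positive on each. This balance depended on the centring, with 561 spots negative and 526 positive throughout when arrays were centred on the spots measured on all 5, and 1402 and 57 without centring. Of the member spots with a value, 3 of 5, 3 of 7, 4 of 6, 1 of 6 and 1 of 7 lay below -1 on arrays 1 to 5, against 20.2%, 18.0%, 20.9%, 19.9% and 12.3% of all spots.

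The mean of Samd11 was -2.51 ± 2.43 log2 (SD, n = 5), with a limma standard error of 0.88 and an adjusted p of 0.432. An exact permutation test that flips the sign of each array, two-sided, gave p = 0.0625, the smallest possible with 5 arrays. Within the scans made at one focus position, arrays 1 to 3, the mean was -3.83, and within the others, arrays 4 and 5, it was -0.54. With arrays 1 and 3 both left out, chosen after seeing the data, it was -0.75.

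Nrl shared the low ratios of arrays 1 and 3 and lay near the array median elsewhere. Spot 2036 read -3.45, 0.20, -3.92, 0.23 and -0.28 log2 across arrays 1 to 5. That is a channel difference of 10.9-fold and 15.2-fold on arrays 1 and 3, against 1.15-fold to 1.21-fold on the others. Its percentiles among all spots were 1.65 and 1.18 on arrays 1 and 3 and ran from 37.5 to 61.4 on the others. The split was wide, but these arrays were set apart after the values were seen, so its lack of overlap follows from that choice. The mean was -1.44 ± 2.06 log2 (SD, n = 5), which did not differ from 0 beyond the spread between arrays (limma standard error 0.76, adjusted p = 0.456; exact permutation p = 0.312). Within the focus groups it was -2.39 on arrays 1 to 3 and -0.02 on arrays 4 and 5. The mean was -0.94 without array 1 and -0.83 without array 3, and without both it turned to 0.05.

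The second Nrl spot, 4821, had no value on arrays 1 and 3, the very arrays on which the first was low. It read 0.35, 0.11 and 2.41 log2 on arrays 2, 4 and 5. The spots differed by 0.12 and 0.15 on arrays 4 and 2, and by 2.69 on array 5, where their signs were opposite. The low Nrl ratios thus rest on a single spot, and no source used here says which filter emptied the cells of the other.

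Crx stayed between -1.16 and 0.79 log2 on its complete spot, and its spots disagreed. Spot 88 read -1.16, 0.62, -0.28, 0.79 and 0.76 log2 across arrays 1 to 5, with percentiles from 16.8 on array 1 to 81.2 on array 4. It was lowest on arrays 1 and 3, the same arrays as Nrl, but on array 3 it lay 0.15 above the middle of all genes. Its mean was 0.15 ± 0.85 (SD, n = 5; limma standard error 0.37, adjusted p = 0.868). This sign is not settled, since the mean was -0.31 without centring, -0.27 within arrays 1 to 3 and 0.78 within arrays 4 and 5.

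The other Crx spot, 1167, ran nearly opposite. It read 0.16, -2.84, -1.02 and -1.64 log2, in turn for arrays 1, 2, 3 and 5, with no value on array 4. It was highest on array 1, where spot 88 was lowest. The mean was -1.34 ± 1.25 (SD, n = 4; limma standard error 0.54, adjusted p = 0.435), with -1.23 within arrays 1 to 3, -1.64 on array 5 and -0.83 without array 2. The spots shared a sign on 1 of 4 arrays, and their median absolute difference was 1.86 log2. Over the 923 genes with 2 spots that shared at least 3 arrays the median of this difference was 0.91, and 82.9% had a smaller one. For Nrl it was 0.15 over 3 arrays, with 2.93% smaller, and for Esrrb 1.31 over 4 arrays, with 67.0% smaller.

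Esrrb was lowest on array 4 and highest on array 5, whereas Nrl and Samd11 were lowest on arrays 1 and 3. Spot 8072 read -0.97, -1.75, -1.13, -5.37 and 1.89 log2 across arrays 1 to 5. The value of array 4 corresponded to a 41.3-fold channel difference at percentile 0.348, whereas array 5 lay at percentile 88.5. Its mean was -1.47 ± 2.60 (SD, n = 5; limma standard error 0.94, adjusted p = 0.508), with -0.49 when array 4 was left out and -2.31 when array 5 was. Means within the focus groups were -1.28 for arrays 1 to 3 and -1.74 for arrays 4 and 5.

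The second Esrrb spot did not share the low value of array 4. Spot 5310 had -0.79, 0.52, -0.05 and 1.50 on arrays 2, 3, 4 and 5 and no value on array 1. On array 4 the spots of this gene differed by 5.31 log2, and on array 5 by 0.39. The mean of spot 5310 was 0.29 ± 0.97 (SD, n = 4; limma standard error 0.45, adjusted p = 0.773), at -0.14 over arrays 2 and 3 and 0.72 over arrays 4 and 5. Its sign turned to -0.09 without centring and to -0.11 without array 5.

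**Figure D1:**
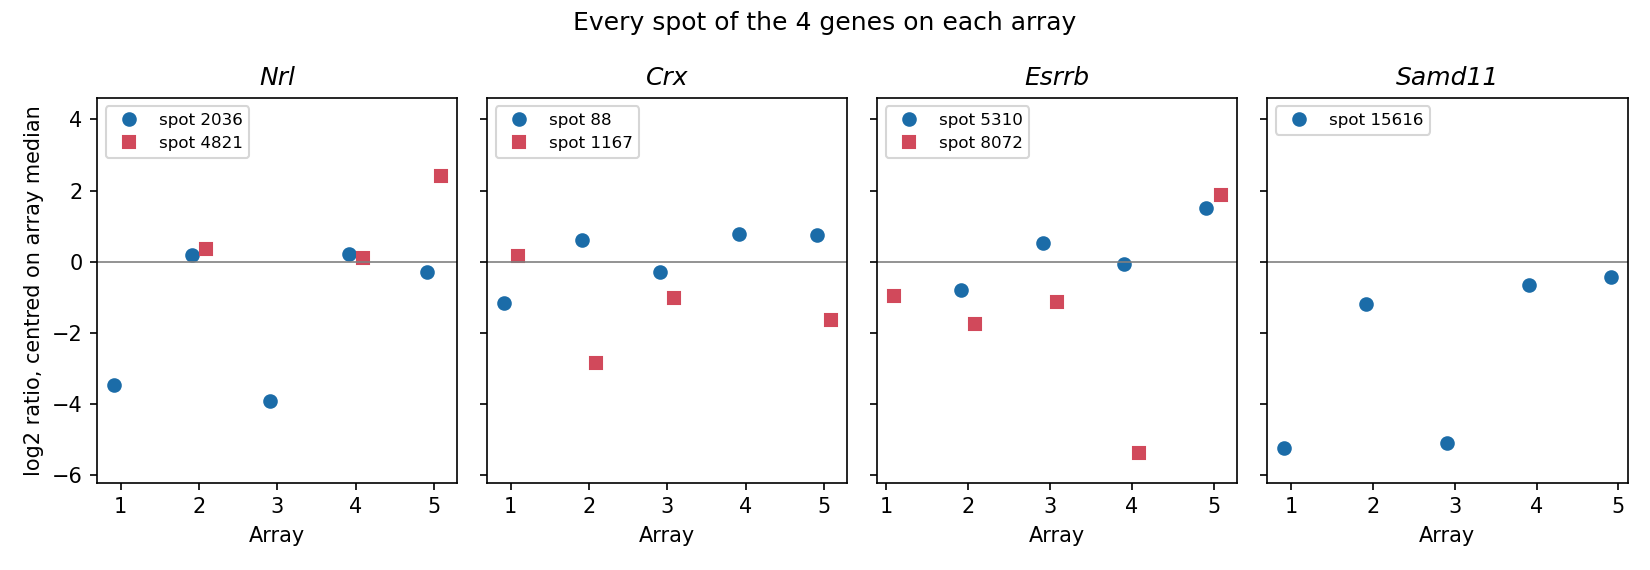
Log2 ratio of each of the 7 spots, less the array median, on arrays 1 to 5, with 1 panel per gene and 1 symbol per spot. Samd11 and the complete Nrl spot lie below -3 on arrays 1 and 3, Crx spot 88 stays between -1.16 and 0.79, and Esrrb spot 8072 falls to -5.37 on array 4.

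None of the 7 spots passed the test, and neither did any other spot. The limma test over 10036 spots called 0, or 0.0% (smallest adjusted p = 0.26), and 0 were called by the unmoderated test. At an unadjusted p under 0.05, 592 spots (5.90%) had a negative mean and 554 (5.52%) a positive one by limma, and 1033 in all by the unmoderated test. Of the 6 member spots tested, Samd11 was the single one under that line by limma (unadjusted p = 0.0264), with Crx spot 1167 at 0.0503. This depended on the setting. In the unmoderated test Samd11 was at 0.0818. By limma without centring, Samd11 (0.00583), Crx spot 1167 (0.00577), Esrrb spot 8072 (0.0304) and Nrl spot 2036 (0.0329) were all under the line. The variation between arrays was large for 3 of the 4 genes. The SD of the complete spot lay at percentile 94.8 of all spots measured on 5 arrays for Nrl, 97.5 for Samd11, 98.3 for Esrrb and 63.3 for Crx, where the median SD was 0.67 log2.

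Differences between the genes within an array do not depend on how arrays are centred, and over complete spots 3 of the 6 pairs kept a sign on all 5 arrays. Nrl minus Crx was -2.29, -0.42, -3.65, -0.56 and -1.04 across arrays 1 to 5, averaging -1.59 ± 1.37 (SD, n = 5). On these complete spots Nrl was thus below Crx on each array, also on those where neither ratio was low. The other Nrl spot, 4821, lay above both Crx spots on array 5, at 2.41 against 0.76 and -1.64. Crx minus Samd11 was 4.07, 1.80, 4.81, 1.44 and 1.18, averaging 2.66 ± 1.66 (SD, n = 5). Nrl minus Samd11 was 1.78, 1.38, 1.16, 0.88 and 0.15, averaging 1.07 ± 0.61 (SD, n = 5), so Samd11 was the lower of the pair throughout. Each of these 3 gave an exact permutation p of 0.0625, the smallest possible, and 0.125 after Benjamini-Hochberg adjustment over the 6 pairs, so none passed. With the 4-array spots averaged in, 1 of the 3 kept its sign on all 5 arrays, Nrl minus Samd11, neither of which has such a spot. Nrl minus Crx was then -1.06 (exact permutation p = 0.375), with positive values of 1.31 and 0.16 on arrays 2 and 5. Crx minus Samd11 was 2.13 (exact permutation p = 0.125), with 0.07 and -0.02 on those arrays. The pairs with Esrrb changed sign between arrays, from -2.79 to 5.60 for Nrl minus Esrrb, from -1.13 to 6.16 for Crx minus Esrrb and from -4.72 to 4.26 for Esrrb minus Samd11 (exact permutation p from 0.375 to 1.0).

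Ratios as low as those of Nrl and Samd11 on arrays 1 and 3 were rare, and 8 rod genes known as targets of Nrl or Crx were among those that shared them. Of the 6753 spots measured on all 5 arrays, 709 (10.5%) were below -1 on both arrays and 28 (0.415%) below -3 on both, a line chosen after the values were seen. The 28 included the Nrl and Samd11 spots. In all, 23 had a single symbol, for 19 different genes, and the 8 on the rod target list were Prph2, Tulp1, Sag, Rom1, Pde6g, Rp1, Pdc and Aipl1, among them the disc rim proteins Prph2 and Rom1, the rod arrestin Sag and the phosphodiesterase subunit Pde6g. Of the 3 complete spots of Prph2, 2 were among the 28, and the other, 2308, was above 0 on arrays 1 and 3. The cone opsin Opn1sw was also among the 28, at -4.51 and -4.18. On arrays 2, 4 and 5, 7, 21 and 19 of the 28 had a negative ratio. The median of all genes lay at 0.01, 0.13 and -0.27 on those arrays. The share of all 6753 spots below 0 was not counted for each array, so these counts are description only.

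**Figure D2:**
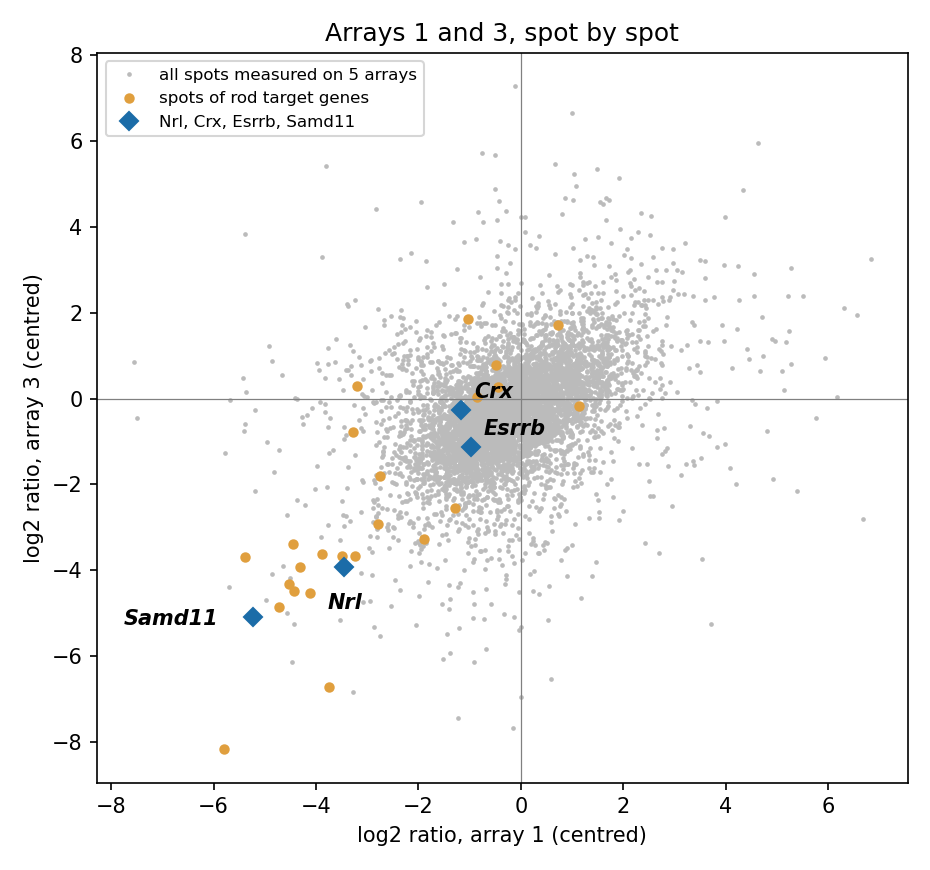
Log2 ratio on array 1 (horizontal) against array 3 (vertical), less the array medians, for the 6753 spots measured on all 5 arrays in grey, spots of rod target genes in orange and the complete spots of the 4 genes as blue diamonds. Nrl and Samd11 lie at the lower left among the rod genes, and Crx at -1.16 and -0.28 and Esrrb at -0.97 and -1.13 lie inside the main cloud.

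Among known rod targets of Nrl and Crx measured on all 5 arrays, most were below -1 on the arrays where Nrl was low. A minority were not. Of 59 genes on this list, 38 had a spot and 18 were measured on all 5 arrays. Below -1 were 14, 3, 11, 4 and 1 of the 18 on arrays 1 to 5, against 21.9%, 7.06%, 25.3%, 6.55% and 8.80% of all genes. The list median, relative to that of all genes, stood at -2.59, 0.09, -2.02, -0.39 and 0.38 log2. The 6 with the smallest limma p were Gnat1, Prph2, Pdc, Rom1, Pde6g and Rp1, and none passed (adjusted p from 0.432 to 0.452). Rp1, a protein of the photoreceptor axoneme, had -4.11, 0.59, -4.53, -0.32 and -0.42. It repeats the split of Nrl between arrays. Prph2 had 3 complete spots that disagreed. Its spot 7705 had -4.52, -0.21, -4.32, -0.90 and -0.45 on arrays 1 to 5, and spot 50 was likewise low on arrays 1 and 3, at -3.50 and -3.67. Spot 2308 went the other way, with 0.72, -0.31, 1.72, 0.60 and 0.62, and the mean of the 3 was -2.44 and -2.09 on arrays 1 and 3. Gnat1, the rod transducin alpha subunit, did not follow Nrl on array 3, with -3.28, -1.21, -0.77, -2.65 and 0.12. On array 1, 4 of the 18 genes were not below -1, among them Cdhr1, a cadherin of the outer segment base, at 1.14. On array 3, 7 were not, and 5 of these were above 0, namely Cacna2d4 at 1.86, Guca1b at 0.80, Glmn at 0.30, Gucy2f at 0.27 and Abca4 at 0.03, all named after their values were seen. In such bulk RNA a difference in the number of rods and one in RNA per rod cannot be told apart. Neither was tested, and which genotype a low ratio stands for is not known.

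Other transcription factors of photoreceptor fate showed a milder version of this split or none. Of 39 listed, 17 had a spot and 8 were measured on all 5 arrays, none called. The list median, relative to that of all genes, stood at -0.40, 0.15, -0.48, 0.06 and 0.17 log2, and 4, 1, 4, 0 and 0 of the 8 were below -1. Thrb, the thyroid hormone receptor of cones, had -1.41, 0.40, -1.12, 0.12 and -0.33 log2 across arrays 1 to 5, and Meis2, a homeodomain factor, had -1.15, -0.03, -1.26, -0.34 and -0.56. Both were lowest on arrays 1 and 3, as Nrl was, at a smaller size. Prdm1, which holds precursors to the photoreceptor fate, was low on arrays 1 to 3, at -1.52, -1.98 and -1.46, and high on array 5, at 2.28. Casz1, a zinc finger factor that biases progenitors toward rods, had 2 complete spots that disagreed. Its spot 3413 read -2.41, 0.28, -2.70, -0.35 and -0.26, and its spot 15569 read 2.65, 0.25, -0.92, -0.37 and -0.42, so that their mean was 0.12 on array 1 and -1.81 on array 3. Averaged over their spots, Tbx2 and Onecut2 had means of -0.01 ± 0.16 and 0.03 ± 0.63 (SD, n = 5 each), and the spots of each differed in sign on some arrays.

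Among relatives and partners of the 4 genes, Samd7, the partner of Samd11, lay lowest on arrays 1 and 3. Of 44 relatives listed, 18 had a spot and 8 were measured on all 5 arrays, none called. The list median, relative to all genes, stood at -0.61, 0.15, -0.41, -0.17 and -0.30 log2. Below -1 were 4, 0, 3, 0 and 1 of the 8. Samd7 read -2.49, 0.56, -2.98, -0.08 and -0.57 log2 across arrays 1 to 5, averaging -1.11 ± 1.55 (SD, n = 5; limma adjusted p = 0.458). It followed Nrl and Samd11 in being lowest on arrays 1 and 3, at a smaller size. The Polycomb proteins Scmh1 and Phc2 were negative on all 5 arrays, where 12.2% of the 3739 genes were, with -1.16, -0.43, -1.41, -0.97 and -0.93 for Scmh1 and a mean of -0.62 ± 0.35 (SD, n = 5) for Phc2. Phc1, Rnf2 and Cbx2, further Polycomb subunits, had means of -0.29, 0.17 and -0.36. Esrrg, the closest measured relative of Esrrb, had -0.96, 0.56, -0.95, -0.44 and -0.34, without the low value of array 4. Nfe2l1, a leucine zipper protein that pairs with small Maf proteins, had -1.05, 0.14, -1.67, 0.26 and -0.23.

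**Figure D3:**
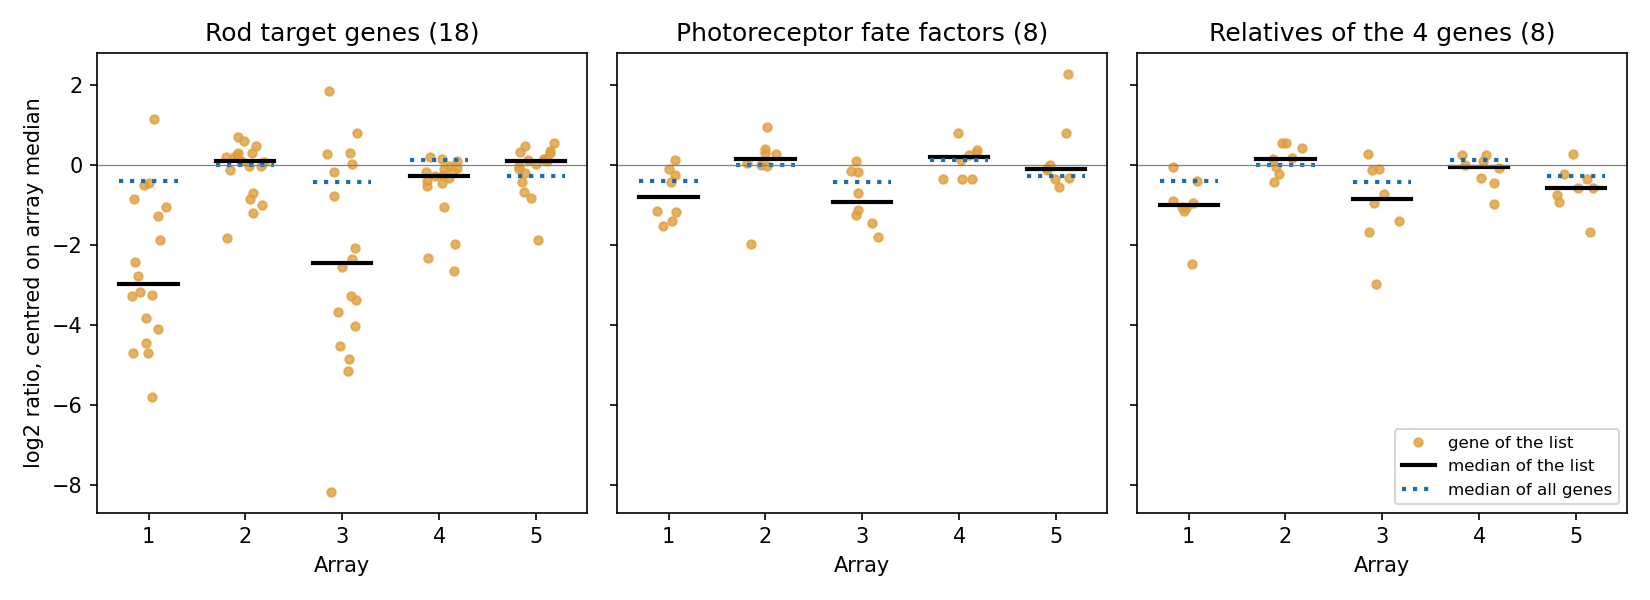
Log2 ratio of each gene measured on all 5 arrays, less the array median, for 18 rod target genes, 8 photoreceptor fate factors and 8 relatives of the 4 genes. Black bars are list medians and dotted blue bars the median of all 3739 genes. The rod target genes spread down to -5.80 and -8.18 on arrays 1 and 3, and the other lists reach no lower than -2.98.

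Markers of other retinal cells were read on the same arrays, and their part in the ratios above was not tested. Relative to all genes, the 7 measured of 12 cone genes had a median of -0.94, 0.29, -1.13, 0.33 and -0.16 log2 across arrays 1 to 5. The 9 measured of 23 progenitor genes had a median of -0.04, -0.07, 1.02, 0.06 and 0.04, high on array 3 and not on array 1. Single genes of this list went both ways on these 2 arrays. Foxn4 had 2.84 and 2.99 and Sfrp2 2.20 and 2.78 on arrays 1 and 3, whereas Ccnd1, averaged over its spots, had -1.63 and -1.32. Below the middle of all genes were 5 of the 9 on array 1 and 3 on array 3. The genes of Muller glia, 6 of 10 measured, had a median of 0.24, -0.23, 0.23, -0.02 and 0.18. Amacrine and horizontal cell genes, 6 of 12 measured, were at 0.33, -0.01, 0.27, -0.14 and 0.47. Ganglion cell genes, 4 of 11 measured, were at -0.68, 0.02, -0.27, -0.33 and 0.45, and bipolar genes, 3 of 9 measured, at -0.24, -0.13, -0.74, -0.27 and -0.03. A single microglia gene was measured on all 5 arrays, C1qb, at 0.44 and 0.46 on arrays 1 and 3. For vessels it was Kdr, at -0.60 and -0.94. No gene of pigment epithelium, lens or blood was measured on all 5 arrays. Genes with a spot numbered 2 for microglia, 4 for vessels, 3 each for pigment epithelium and lens, and 0 for blood. The measured genes counted above also had values on all 5 arrays.

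The genes whose ratios lay closest to each of the 4 over the 5 arrays were named by the root mean square difference in log2 ratio. Those nearest to Nrl were Aipl1 at 0.33, Htra1 at 0.49, Rp1 at 0.51, Scamp5 at 0.52 and Atp2b1 at 0.58, where the median over 3738 genes was 2.15. Aipl1, a chaperone of the photoreceptor phosphodiesterase, had -3.25, -0.12, -3.67, -0.18 and 0.14 on arrays 1 to 5. Nearest to Samd11 were Rom1 at 0.59, Sv2b at 0.79, Rtbdn at 0.81 and Dact2 and Pdc at 0.92 each, with a median of 3.11. Rtbdn, a riboflavin-binding protein of the retina, had -4.48, 0.02, -6.14, -0.32 and -0.22. Nrl ranked 12 among the genes nearest to Samd11, and Samd11 ranked 92 for Nrl, at 1.20 log2.

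Nearest to Crx was Rorb, the nuclear receptor that acts above Nrl in rod precursors, at 0.15 log2 where the median over genes was 0.94. Rorb had -1.17, 0.30, -0.16, 0.79 and 0.80 on arrays 1 to 5, each within 0.32 of Crx spot 88. Tmcc2, Riok2, Cd164 and Rnf41 followed at 0.19, 0.20, 0.24 and 0.25. For Esrrb the ratios were those of spot 8072, since spot 5310 had no value on array 1. On array 4 spot 5310 read -0.05, against -5.37 for spot 8072. Nearest to spot 8072 were Kcnab1, Gfra2, Gpr62, Mtmr2 and Vps37a, at 1.00 to 1.20 where the median was 2.85. None of these 5 was on the rod list, and each was lowest on array 4, where they ran from -6.61 to -3.93. The nearest genes were picked on these same ratios, so a shared low array follows from the choice. Scored on percentile ranks in place of log2 ratios, 0 of the 5 genes nearest to Nrl, Samd11 and Esrrb and 2 of the 5 nearest to Crx were the same, so these names hold for the log2 scale.

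**Figure D4:**
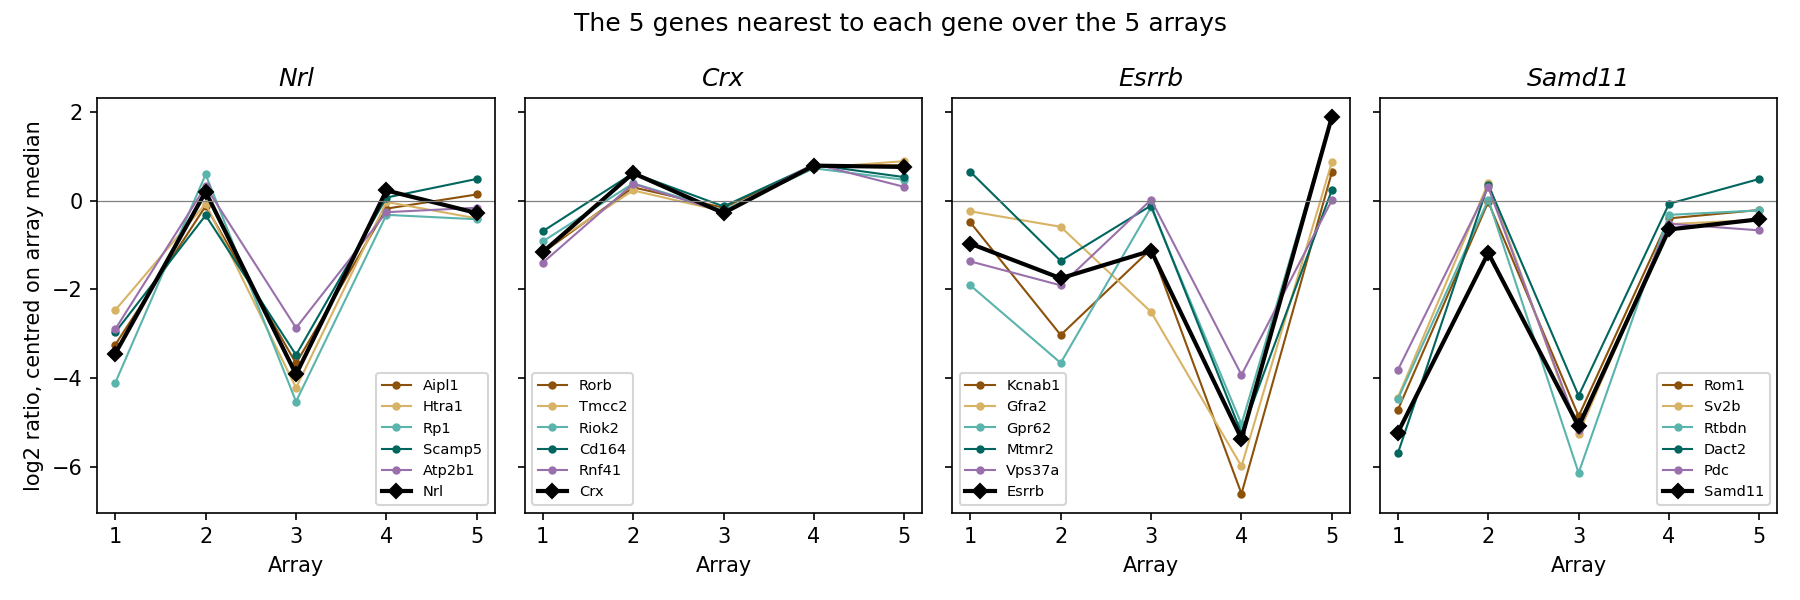
Log2 ratio, less the array median, of each of the 4 genes (black diamonds) and of its 5 nearest genes (coloured points) on arrays 1 to 5, with lines that join the points of a gene and stand for no order of the arrays. Nrl and Samd11 share their low arrays 1 and 3 with their nearest genes, Crx and Rorb stay between -1.17 and 0.80, and Esrrb and its nearest genes are lowest on array 4. Each of the 4 genes is shown by its spot measured on all 5 arrays, which is spot 8072 for Esrrb. The nearest genes were picked on these same ratios, so the shared patterns follow from the choice.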

How the data were processed

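The authors deposited 1 log2 ratio per spot and array, a scale inferred from the values themselves. GenePix Pro 4.1.1.29 made them from scans at 635 and 532 nm, per the labels, subtracting the local background without normalizing. No source used here states a dye swap or why cells are empty. Cells at 16.61, the log2 of 100000, were taken as a filler and set to missing (106 to 141 per array), and each array was centred on its median. Gene names came from the platform annotation, updated by gene identifier through RefSeq (GRCm38.p6): 7914 spots had 1 symbol, of which 7663 had an entry, 353 had several and 9061 none. The 192 ACTB control spots were left out of tests. Spots measured on at least 4 arrays were tested against 0 with lmFit and eBayes in limma 3.58.1 (R 4.3.3) with Benjamini-Hochberg adjustment over all spots and a threshold of 0.05. The fit was tested on simulated data. Exact tests flipped the signs of the 5 arrays. A gene is the mean of its spots measured on all 5 arrays. The number of arrays and their spread limit the precision. The 4 genes, the lists and the naming rule were chosen with earlier results of these data known. The rule named each spot of the 4 genes, the measured relatives, up to 6 genes of each other list with the smallest limma p, and the 5 genes nearest to each of the 4. Alternatives were other centring and scaling, the filler kept, other filters, the unmoderated test, the focus position of the scan as a random block or within each position, and each array left out. Arrays 1 to 3 were scanned at focus position 10 and arrays 4 and 5 at 0.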

Additional observations from a re-analysis of the deposited data

Results flagged for a closer look

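A gap between 1 array and the rest was looked for in 75 results and found in 5, where chance gives about 3.75. None was a value of Nrl, Crx, Esrrb or Samd11. Such a check cannot flag Nrl or Samd11 for being low on arrays 1 and 3 together. The 5 are not every such gap in these data. Glmn, at -3.19 on array 1 against -0.26 to 0.30, was not among them. Its absence does not show that it lacks such a gap. The median of the retinal progenitor genes minus that of all genes was 1.02 log2 on array 3, against -0.07 to 0.06 on the other arrays. Single genes of that list were far from the middle on array 1 too, such as Foxn4 at 2.84 and Ccnd1 at -1.63. Cbx2, a Polycomb subunit, read -1.67 log2 on array 5, against -0.11 to 0.10. Rnf2, a Polycomb ubiquitin ligase, had -0.39 on array 1, against 0.24 to 0.42. Slc32a1, the vesicular transporter of inhibitory amacrine cells, had -4.18 on array 2, against -0.06 to 1.59. Calb2, which encodes calretinin, had -0.75 on array 1, against 0.16 to 0.39.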

How the results depend on the processing

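The count of spots past the threshold was 0 under each of the 15 alternatives (smallest adjusted p from 0.102 with the focus position as a random block to 0.525 without array 5). Crx spot 88 turned from 0.15 to -0.31 without centring and to -0.27 within arrays 1 to 3, and ran from -0.02 to 0.47 with an array left out. Esrrb spot 5310 turned from 0.29 to -0.09 without centring and to -0.14 within the first focus position, and ran from -0.11 to 0.66. The Nrl spot 2036 turned to 0.05 without arrays 1 and 3, and ran from -1.86 to -0.83 with 1 array left out. Samd11 ran from -3.04 to -1.83, Esrrb spot 8072 from -2.31 to -0.49 and Crx spot 1167 from -1.83 to -0.83. Nrl minus Esrrb, 0.02, was -0.10 with quantile normalization, -0.73 with the 4-array spots averaged in, and -1.37 to 0.72 with an array left out. With the 4-array spots averaged in, Crx minus Esrrb moved from 1.61 to 0.33 and Esrrb minus Samd11 from 1.05 to 1.80. Spots of 1 sign on all arrays numbered 1030, and 1398 to 1954 when 4 arrays had to share it (1571, 1954 and 1742 without arrays 1, 2 and 4). On percentile ranks 0, 2, 0 and 0 of the 5 genes nearest to Nrl, Crx, Esrrb and Samd11 were kept. The other alternatives of the member spots and pairs kept their direction and side of the threshold. The cause was not tested. Without intensities, dim and bright spots weigh alike. Each ratio sets mutant against wild-type RNA on 1 array, and no further block by replicate applies because the arrays form a single group.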
